A study of Macaca mulatta with 43 samples.

Results

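Potassium channels set the resting potential of neurons and glia, repolarise the membrane after each action potential and carry away the potassium that firing releases. Their pore-forming subunits fall into voltage-gated, inwardly rectifying, two-pore and calcium-activated families, and smaller auxiliary subunits change how the pores open and where they sit. Several of them are known direct targets of ethanol, among them the large-conductance calcium-activated (BK) channel encoded by KCNMA1 and the G protein-gated inward rectifiers (GIRK channels), to which KCNJ6 and KCNJ9 belong. The genes described here are those whose symbol starts with KCN in the annotation of the rhesus macaque array, and each is represented by 1 probeset, the one with the highest mean over all arrays. There were 74 such genes among 14132 genes with a single symbol, measured by 112 probesets. All 74 chosen probesets passed the filter on low values, 46 of the genes had a single probeset and 28 had several.

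RNA was hybridised from the medial prefrontal cortex of 43 adult male rhesus macaques, aged 5 to 11 years, with 1 array per animal and RNA pooled within each animal over Brodmann areas 24, 25 and 32. The 32 ethanol-drinking animals had been brought to drink by schedule-induced polydipsia and then had free access to 4% (w/v) ethanol beside water for 22 h per day over 1 year. The 11 control animals received a maltose dextran solution matched in calories to a drinker, and water. Cohort 4 held 11 drinkers and no control. Cohort 5 held 8 drinkers and 5 controls, cohort 7a held 8 drinkers and 4 controls, and cohort 7b held 5 drinkers and 2 controls. Individually housed animals of one sex were used throughout. Signals are given as log2 RMA values, in which 1 unit is a doubling of signal, and a gene is called when its Benjamini-Hochberg adjusted p in limma, over all 24151 probesets tested, is under 0.05.

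RNA of cohorts 4 and 5 was prepared with one extraction kit and RNA of cohorts 7a and 7b with another, so kit and cohort cannot be told apart in the level of any gene. No 2 arrays held identical values, and correlations between arrays ran between 0.952 and 0.996. The array carries probesets at both ends of beta-actin mRNA, whose 3′ minus 5′ value rises as transcripts shorten among arrays prepared alike. In cohort 7a this value was between 0.93 and 1.60 in drinkers and between 0.76 and 0.87 in controls, with no overlap. In cohort 7b it was between 0.76 and 1.71 in drinkers and 0.75 and 0.81 in the controls, and in cohort 5 it was between 4.36 and 4.95 in drinkers and between 4.24 and 4.74 in controls. It therefore moved with treatment in cohort 7a. Calls over all arrays or between cohorts that were lost with it in the model are named below. Within cohort 7a it left 11 members called higher and 4 lower, in place of 11 and 10, and the calls lost there are not named. The 2 controls of cohort 7b, animals 37 and 38, also weighed heavily: without animal 37, the potassium channel genes called over all arrays numbered 3 in place of 6, those called within cohort 7b 18 in place of 28, and those called for a difference between cohorts 11 in place of 19. Without animal 38 the count over all arrays was also 3.

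**Figure D1:**
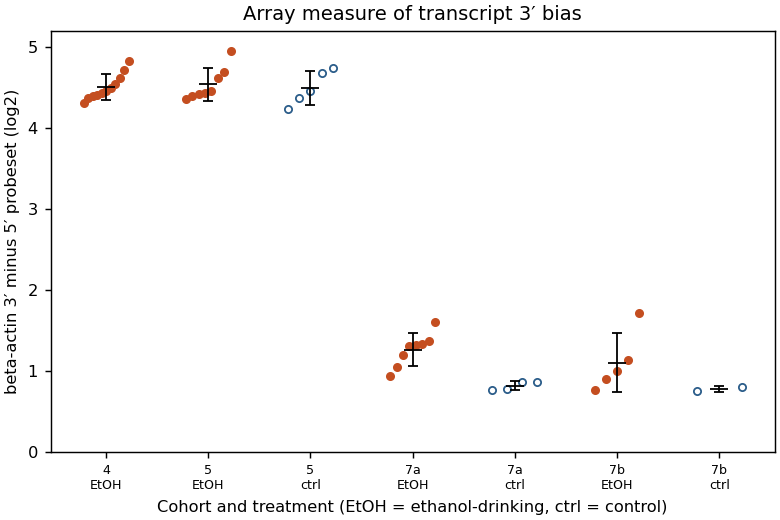
Beta-actin 3′ minus 5′ value (log2, y axis) of each array by cohort and treatment (x axis), drinkers filled and controls open, with mean and SD as bars. Cohorts 4 and 5 lie at or above 4.24 and cohorts 7a and 7b at or below 1.71, and the 8 drinkers of cohort 7a all lie above the 4 controls.

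Over all 43 arrays, 6 of the 74 potassium channel genes differed between ethanol-drinking and control animals. KCNA3, KCNC4, KCNJ6 and KCNK5 rose in drinkers and KCNMB2 and KCNK13 fell, all by less than 0.35 log2 units. The 4 genes called higher were 5.41% of the members, where 6.24% of all 13705 genes were called higher. The 2 called lower were 2.70%, where 10.3% of all genes were called lower. The median log2 difference was -0.02 over the members and -0.03 over all genes, and no test set the members against the other genes. Where a gene had several probesets, they did not always give the same call. Another probeset than the chosen one was called for 4 further members (KCNJ5, KCNMA1, KCNMB4 and KCNQ1), and 3 of the 6 called members (KCNA3, KCNC4 and KCNK5) had another probeset without a call.

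KCNA3 encodes Kv1.3, a delayed rectifier of lymphocytes, microglia and some neurons. Its values had a lowest, median and highest array of 8.87, 9.30 and 9.43 in drinkers of cohort 4, and of 9.04, 9.30 and 9.40 in drinkers of cohort 5 against 9.15, 9.15, 9.26, 9.26 and 9.32 in the controls of that cohort. Drinkers of cohort 7a had 9.13, 9.42 and 9.49 (lowest, median and highest), against 8.85, 8.87, 8.90 and 9.08 in controls. Drinkers of cohort 7b had 9.16, 9.23, 9.27, 9.30 and 9.43, against 8.75 and 8.83 in controls. The controls of cohorts 7a and 7b were thus below every drinker of their own cohort, while in cohort 5 the groups overlapped. The difference over all arrays was 0.24 ± 0.06 (SE; adjusted p = 0.00535). A second KCNA3 probeset differed by 0.01 (adjusted p = 0.975), so the call rests on 1 of the 2.

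KCNJ6 encodes GIRK2, a channel opened by G protein-coupled receptors in cortical pyramidal cells and other neurons. Its values were 9.36, 9.47 and 9.56 (lowest, median and highest) in drinkers of cohort 4. In cohort 5 they were 9.23, 9.42 and 9.48 in drinkers and 9.28, 9.38, 9.39, 9.42 and 9.49 in controls. In cohort 7a drinkers had 9.60, 9.75 and 9.87, and controls had 8.92, 9.34, 9.46 and 9.54. In cohort 7b drinkers had 9.41, 9.45, 9.56, 9.62 and 9.82, and controls had 8.92 and 9.04. Again the drinkers of cohorts 7a and 7b lay wholly above their controls and those of cohort 5 did not. The difference over all arrays was 0.24 ± 0.06 (SE; adjusted p = 0.00830), and the call held in each of 11 alternative fits, as it did for KCNK5. KCNJ6 has 1 probeset, and none of these fits read the other probeset of KCNK5.

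KCNK5 encodes TASK-2, a two-pore leak channel sensitive to extracellular pH that is best known from kidney. Drinkers had a lowest, median and highest value of 9.69, 9.95 and 10.01 in cohort 4. In cohort 5 drinkers had 9.72, 9.87 and 9.99, and controls 9.79, 9.92, 9.93, 9.96 and 9.97. Cohort 7a drinkers had 9.84, 9.98 and 10.13 and controls 9.42, 9.55, 9.59 and 9.80, while cohort 7b drinkers had 9.77, 9.84, 9.89, 10.02 and 10.04 and controls 9.10 and 9.20. The 5 lowest arrays of all were controls of cohorts 7a and 7b, and the remaining control of cohort 7a lay above 4 drinkers of other cohorts. The difference over all arrays was 0.26 ± 0.06 (SE; adjusted p = 0.00484). This probeset is of a type whose probes can match more than one transcript, and the other KCNK5 probeset differed by -0.07 (adjusted p = 0.303), so the identity of the transcript behind the change was not settled.

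KCNC4 encodes Kv3.4, a rapidly activating channel of axons and terminals. In cohort 7b its values were 7.88, 7.89, 8.06, 8.09 and 8.45 in drinkers and 7.33 and 7.36 in controls. In cohort 7a they were 7.71, 8.10 and 8.26 in drinkers and 7.62, 7.67, 7.80 and 7.81 in controls. In cohort 5 the medians were 7.86 in drinkers and 7.86 in controls. The groups were apart in cohort 7b and overlapped in the other cohorts, with a difference over all arrays of 0.21 ± 0.06 (SE; adjusted p = 0.0203). Of the 2 further KCNC4 probesets one differed by 0.11 (adjusted p = 0.680) and the other by -0.11 (adjusted p = 0.408). Without control animal 37 or 38 of cohort 7b the call was lost, at adjusted p of 0.0818 and 0.0784, as it was with the actin value and cohort in the model (0.17, adjusted p = 0.0847).

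Among the members that fell, KCNMB2 encodes the beta 2 subunit that gives BK channels an inactivating current. It was at 6.01, 6.59 and 6.87 (lowest, median and highest) in drinkers of cohort 7a and at 6.72, 6.93, 6.99 and 7.10 in controls. In cohort 7b it was at 6.53, 6.68, 6.68, 6.75 and 6.82 in drinkers and at 7.22 and 7.27 in controls, and in cohort 5 at 6.19, 6.29 and 6.64 in drinkers and at 6.37, 6.41, 6.41, 6.44 and 6.46 in controls. The groups did not overlap in cohort 7b and overlapped in the other cohorts, and the difference over all arrays was -0.33 ± 0.09 (SE; adjusted p = 0.0124). Without control animal 37 or 38 of cohort 7b it missed the threshold, at adjusted p of 0.0525 and 0.0507. It also missed it without cohort 4 (-0.25, adjusted p = 0.119) and with the actin value and cohort in the model (-0.17, adjusted p = 0.0562). For the other BK genes the result depended on the probeset. KCNMA1, the pore, had a difference of -0.04 ± 0.18 (SE; adjusted p = 0.904) in the chosen probeset, one of 0.02 (0.971) in a second and one of 0.49 (0.00766) in another. KCNMB4, the main neuronal beta subunit, had -0.05 ± 0.05 (adjusted p = 0.540) in the chosen probeset, -0.31 (0.0146) in another, and -0.08 and 0.10 without a call in 2 more.

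KCNK13 encodes THIK-1, a two-pore channel that in mouse and human brain is known from microglia. Its medians were 4.91 in drinkers of cohort 4, 4.88 in drinkers and 5.11 in controls of cohort 5, 5.03 in drinkers and 5.31 in controls of cohort 7a, and 5.14 in drinkers and 5.23 in controls of cohort 7b. Values overlapped in each cohort with controls. The difference was -0.18 ± 0.06 (SE; adjusted p = 0.0400), the smallest of the 6, and it missed the threshold with processing batch in the model (adjusted p = 0.0573), with arrays centred on their medians (0.128), without cohort 4 (0.193), with the actin value and cohort in the model (-0.11, adjusted p = 0.203) and without any one of the 4 controls of cohort 7a or the 2 of cohort 7b. Of 6 microglial markers measured, 2 fell over all arrays, P2RY12 by 0.49 and AIF1 by 0.42 log2 units, and the others were not called. Within cohort 7b 2 were called lower and 1 higher, CSF1R by 0.36 (adjusted p = 0.0123). KCNK13 itself differed by -0.24 in cohort 7a (adjusted p = 0.0455) and by -0.07 in cohort 7b (0.697). The mean level of the microglial list was between 6.82 and 7.19 in drinkers and between 7.28 and 7.64 in controls of cohort 7a. In cohort 7b it was between 7.01 and 7.25 in drinkers and at 7.43 and 7.45 in controls. In cohort 5 it was between 6.91 and 7.32 in drinkers and between 6.96 and 7.17 in controls. The part of the list in the change of KCNK13 was not tested. In tissue RNA, fewer cells of a type and less RNA per cell cannot be told apart.

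**Figure D2:**
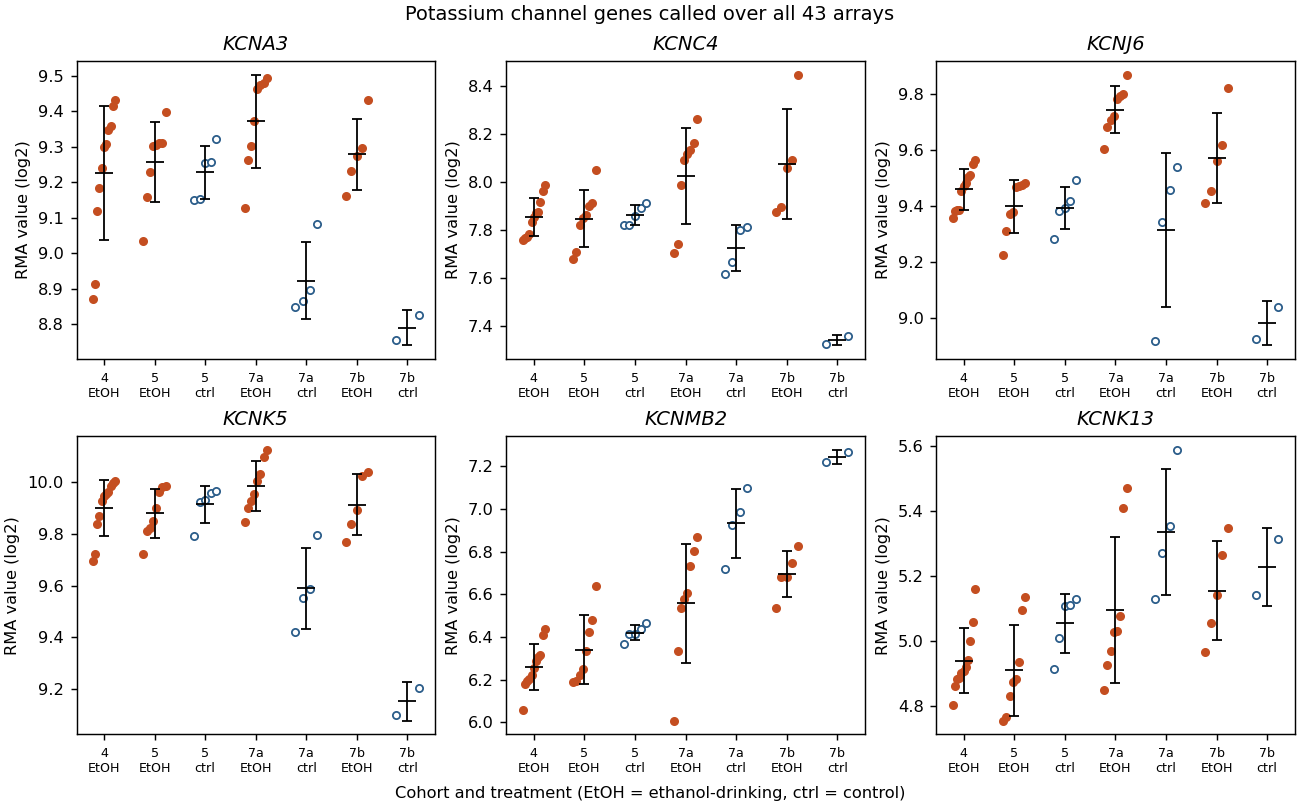
RMA value (log2, y axis) of the 6 potassium channel genes called over all 43 arrays, for each array by cohort and treatment (x axis), drinkers filled and controls open, with mean and SD as bars. For KCNA3, KCNJ6 and KCNK5 the controls of cohorts 7a and 7b lie below the drinkers of their cohorts, and in cohort 5 the groups overlap.

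Levels of some members stood far apart between the cohorts prepared with different kits. KCNC1, for Kv3.1 of fast-spiking neurons, had medians of 6.78 in drinkers of cohort 4 and 6.82 in drinkers of cohort 5, against 8.33 in drinkers of cohort 7a and 7.98 in drinkers of cohort 7b. With cohort as a block, 14 members were called higher and 6 lower in drinkers (18.9% and 8.11% of the members), where 13.2% and 20% of all genes were called. The block changed the direction of 1 called gene: KCNF1, an electrically silent subunit that joins Kv2 channels, differed by -0.02 ± 0.18 over all arrays and by 0.16 ± 0.06 with the block (SE; adjusted p = 0.0386). KCNC1 differed by 0.05 ± 0.23 without the block and by 0.28 ± 0.07 with it (adjusted p = 0.00233), and KCNIP4 by -0.54 ± 0.22 and -0.42 ± 0.09 (adjusted p = 0.0850 and 0.000345).

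Within cohort 5, none of the 74 genes was called (0% of all genes higher and 0% lower), and 2 members had an unadjusted p under 0.05. The differences ran between -0.48 and 0.19 log2 units with a median SE of 0.08. Within cohort 7a, 11 members rose and 10 fell in drinkers (14.9% and 13.5% of the members), where 11.9% of all genes were called higher and 18.4% lower. Within cohort 7b, 17 members rose and 11 fell (23% and 14.9%), where 15.2% of all genes were called higher and 26.6% lower. In both of these cohorts the balance among the members lay further toward higher values than that of the array as a whole. In both it moved with the scaling. With arrays centred on their medians the splits were 17 higher and 5 lower in cohort 7a and 24 higher and 6 lower in cohort 7b. Shares of all genes were not counted with this centring, so these splits cannot be set against the array. Array medians of the tested probesets were between 6.87 and 6.98 in drinkers and between 6.95 and 7.01 in controls of cohort 7a. In cohort 7b they were between 6.82 and 6.93 in drinkers and at 6.97 and 6.99 in controls. Cohort 7b has 2 controls, and the fit takes its spread from all 7 groups.

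**Figure D3:**
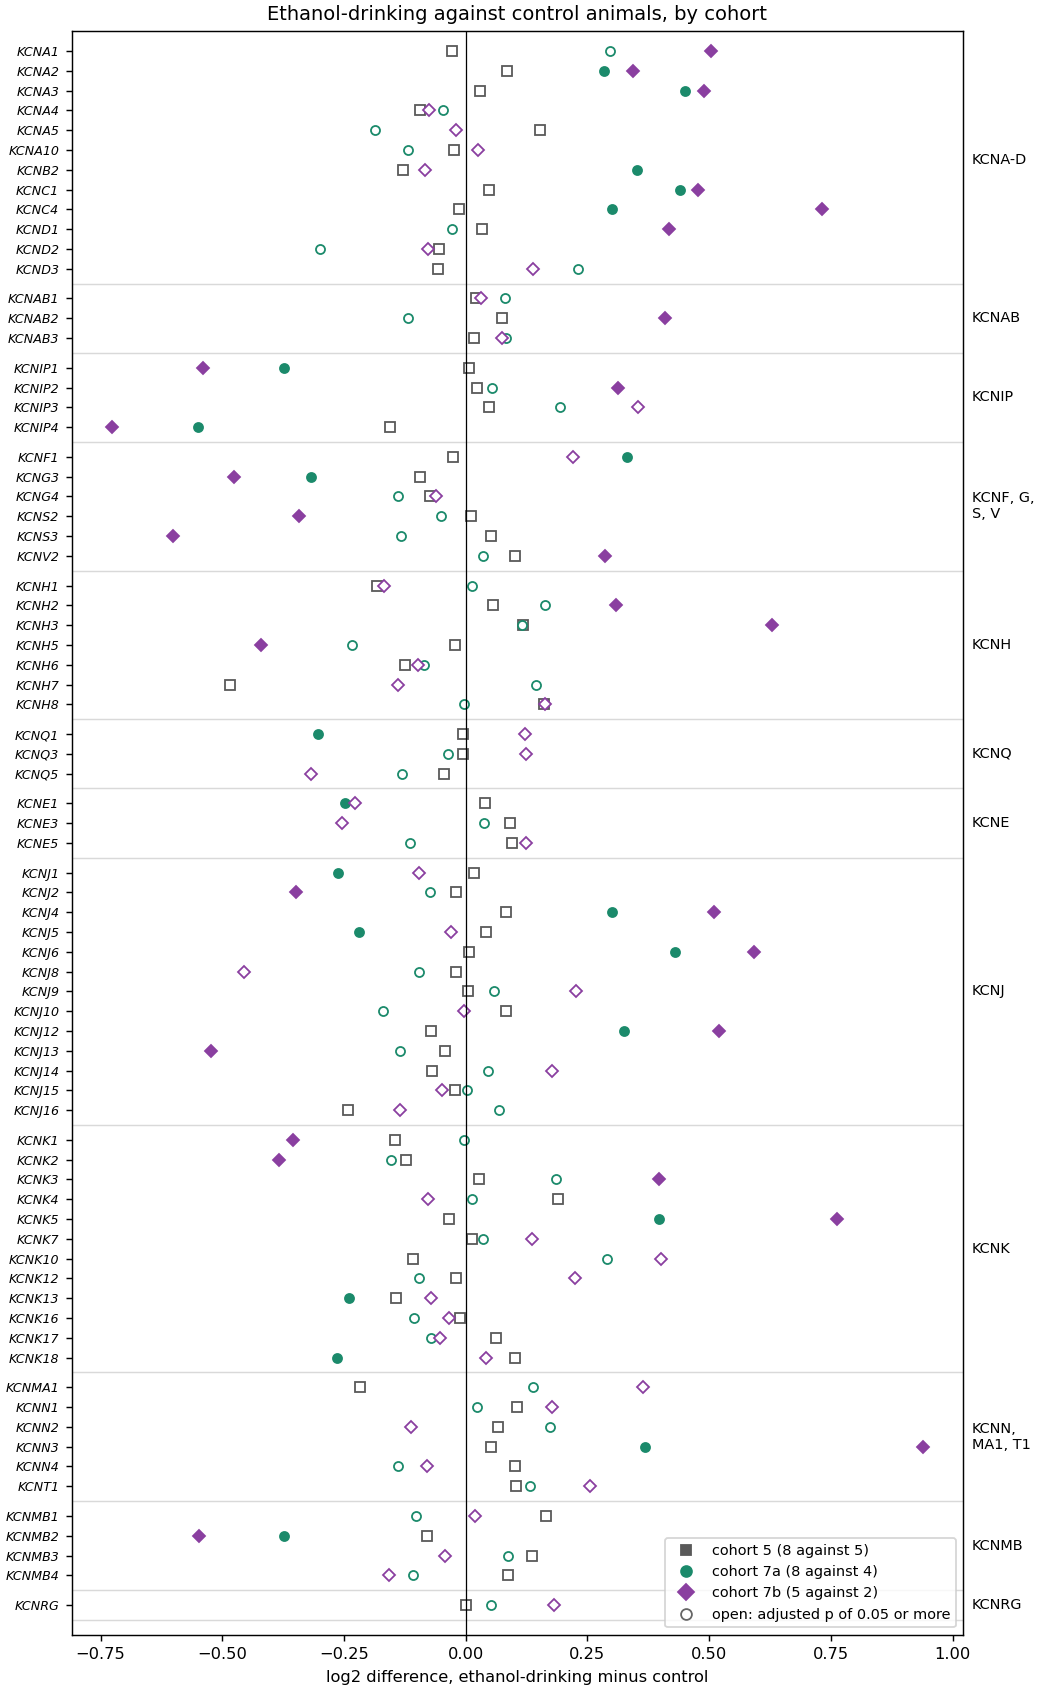
Log2 difference of ethanol-drinking minus control animals (x axis) for the 74 potassium channel genes (y axis, by family) in cohort 5 (squares), cohort 7a (circles) and cohort 7b (diamonds), filled where the adjusted p is under 0.05. No square is filled, and the filled points of the voltage-gated alpha subunits all lie above 0.

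Whether ethanol drinkers differed from controls to another extent in cohorts 7a and 7b than in cohort 5 was tested as a difference of differences in the fit of all 7 groups, and it uses the same arrays as the comparisons within cohorts. The test called 19 members, 14 with a higher and 5 with a lower value in cohorts 7a and 7b (18.9% and 6.76% of the members), where 10.9% of all genes were called higher and 21.4% lower. The median difference was 0.02 over the members and -0.07 over all genes. Of the 19, 7 were called under each alternative that was tried: KCNJ4, KCNJ6, KCNJ12, KCNK5, KCNN3, KCNIP1 and KCNS3. Among these 7, only KCNJ12 was also read from another probeset. Processing batch as a block left 12 called, 7 higher and 5 lower, and the actin value as a covariate left 13, 9 higher and 4 lower. Shares of all genes were not counted in these fits.

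Voltage-gated alpha subunits open as the membrane depolarises. Of the 12 genes of the KCNA, KCNB, KCNC and KCND groups, 5 were called higher between cohorts, none lower and 7 not. Their median difference was 0.23 log2 units, and that over all genes was -0.07. KCNA3 differed by 0.44 ± 0.11 (SE; adjusted p = 0.00124), and its second probeset by 0.11 (adjusted p = 0.616). KCNC4 differed by 0.53 ± 0.11 (adjusted p = 0.000166), and its 2 other probesets by 0.38 (0.0752) and 0.09 (0.539). KCNA1, for Kv1.1 at the axon initial segment and beside nodes of Ranvier, was at 6.77, 7.37 and 7.65 (lowest, median and highest) in drinkers of cohort 7a, against 6.74, 7.04, 7.07 and 7.25 in controls, and at 7.07, 7.13, 7.34, 7.37 and 7.46 in drinkers of cohort 7b, against 6.70 and 6.85 in controls. Its groups overlapped in cohort 7a and were apart in cohort 7b, and the difference between cohorts was 0.43 ± 0.15 (adjusted p = 0.0291, and 0.0862 with batch as a block). KCNA2, the Kv1.2 partner of Kv1.1, rose in both cohorts in its chosen probeset. The rise was 0.28 ± 0.09 in cohort 7a (adjusted p = 0.0204) and 0.34 ± 0.13 in cohort 7b (adjusted p = 0.0309). The difference from cohort 5 did not pass (0.23 ± 0.12, adjusted p = 0.146). The second KCNA2 probeset was not called, at -0.06 in cohort 7a (adjusted p = 0.600) and 0.04 in cohort 7b (0.823).

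KCNC1 was at 8.05, 8.33 and 8.58 (lowest, median and highest) in drinkers of cohort 7a, against 7.73, 7.88, 7.92 and 8.02 in controls. In cohort 7b it was at 7.85, 7.96, 7.98, 8.0002 and 8.41 in drinkers, against 7.53 and 7.60 in controls. No control reached a drinker in either cohort. In cohort 5 the medians were 6.82 in drinkers and 6.90 in controls, and the difference between cohorts was 0.41 ± 0.13 (SE; adjusted p = 0.0167, 0.0754 with the actin covariate and 0.0620 with batch as a block). KCNB2, for the delayed rectifier Kv2.2, rose in cohort 7a by 0.35 ± 0.08 (adjusted p = 0.000692) and had a difference of -0.08 ± 0.11 in cohort 7b in the chosen probeset. Its difference between cohorts was 0.26 ± 0.10 (adjusted p = 0.0384, 0.209 with batch as a block and 0.142 with the actin covariate). With only the arrays of the cohorts compared, the adjusted p was 0.0607. The second KCNB2 probeset rose in both cohorts, by 0.22 in cohort 7a (adjusted p = 0.0228) and by 0.32 in cohort 7b (0.0107), with a difference between cohorts of 0.31 (0.00955). Of the KCND genes, for A-type Kv4 channels, KCND2 and KCND3 (Kv4.2 and Kv4.3) did not pass in either cohort or between cohorts. KCND1 was called higher in cohort 7b, by 0.42 (adjusted p = 0.000573). It was not called in cohort 7a (-0.03, adjusted p = 0.797) or between cohorts (0.16, adjusted p = 0.178).

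KCNIP genes encode EF-hand calcium sensors that bind Kv4 channels and slow their inactivation. Of the 4 measured, 2 were called lower between cohorts and none higher. KCNIP1 was at 6.65, 6.86 and 6.93 (lowest, median and highest) in drinkers of cohort 7a and at 7.13, 7.14, 7.23 and 7.26 in controls, and at 6.32, 6.68, 6.94, 7.08 and 7.12 in drinkers of cohort 7b and at 7.33 and 7.40 in controls. In cohort 5 it was at 5.99, 6.12 and 6.24 in drinkers and at 6.001, 6.03, 6.10, 6.16 and 6.21 in controls. Drinkers of cohorts 7a and 7b lay wholly below their controls, and those of cohort 5 overlapped with theirs. The difference between cohorts was -0.46 ± 0.11 (SE; adjusted p = 0.00112).

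KCNIP4 fell in the same cohorts. In cohort 7a it was at 7.98, 8.22 and 8.71 (lowest, median and highest) in drinkers, against 8.22, 8.93, 9.11 and 9.14 in controls, and in cohort 7b at 8.19, 8.56, 8.57, 8.59 and 8.59 in drinkers, against 9.11 and 9.34 in controls. Cohort 5 gave 7.09, 7.26 and 7.61 in drinkers and 7.23, 7.31, 7.50, 7.55 and 7.61 in controls. Only in cohort 7b were the groups apart. The difference between cohorts, -0.48 ± 0.16 (SE; adjusted p = 0.0219), was -0.27 with the actin covariate (adjusted p = 0.172). With arrays centred on their medians it was -0.39 (adjusted p = 0.0525). KCNIP2 had a difference between cohorts of 0.16 ± 0.10, and KCNIP3, which is also known as the transcriptional repressor DREAM, one of 0.23 ± 0.14, neither past the threshold.

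The 3 Kv beta subunits (KCNAB), cytoplasmic partners of Kv1 channels, gave no call between cohorts and differences of 0.03 to 0.07. Within cohort 7b KCNAB2 was called higher, by 0.41 (adjusted p = 0.000111), and by 0.53 (8.80e-06) in another probeset. In cohort 7a these probesets had -0.12 (0.137) and -0.09 (0.339). The remaining KCNAB2 probesets were not called in cohort 7b (-0.04 and 0.11). Among the electrically silent subunits, which form channels only with Kv2, KCNS3 was at 6.35, 6.46 and 6.62 (lowest, median and highest) in drinkers of cohort 7a, against 6.15, 6.58, 6.71 and 6.93 in controls, and at 6.09, 6.22, 6.28, 6.40 and 6.45 in drinkers of cohort 7b, against 6.85 and 6.93 in controls. The groups were apart in cohort 7b and overlapped in cohort 7a, with a difference between cohorts of -0.42 ± 0.11 (SE; adjusted p = 0.00207). KCNF1 went the other way, with 0.30 ± 0.11 (adjusted p = 0.0356, 0.211 with batch as a block and 0.0658 with the actin covariate). The ether-à-go-go family had 1 call in 7 genes, KCNH3 (Kv12.2, a subthreshold channel of forebrain neurons), at 0.26 ± 0.09 (adjusted p = 0.0238, 0.0613 with batch as a block and 0.122 with the actin covariate). None of the 3 KCNQ genes measured, of which KCNQ3 and KCNQ5 carry the M-current, was called between cohorts, and of the 3 KCNE genes KCNE1 was, at -0.28 ± 0.10 (adjusted p = 0.0327, and 0.0593 with batch as a block), with -0.05 in its second probeset (0.786).

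Inward rectifiers hold the membrane near the potassium equilibrium potential, and 3 of the 13 measured were called higher between cohorts and none lower. KCNJ4, for the neuronal Kir2.3, had the smallest spread of these. It was at 8.95, 9.01 and 9.19 (lowest, median and highest) in drinkers of cohort 7a and at 8.62, 8.72, 8.79 and 8.83 in controls, and at 8.78, 8.79, 8.83, 8.95 and 8.97 in drinkers of cohort 7b and at 8.33 and 8.38 in controls. In cohort 5 it was at 8.32, 8.41 and 8.57 in drinkers and at 8.22, 8.26, 8.37, 8.38 and 8.43 in controls. Every drinker of cohorts 7a and 7b exceeded the controls of its cohort, and the difference between cohorts was 0.32 ± 0.07 (SE; adjusted p = 0.000402).

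KCNJ12, for Kir2.2, followed the same course. In cohort 7a it was at 7.70, 7.85 and 8.003 (lowest, median and highest) in drinkers and at 7.46, 7.49, 7.57 and 7.63 in controls. In cohort 7b it was at 7.42, 7.52, 7.66, 7.70 and 7.82 in drinkers and at 7.09 and 7.12 in controls. Both cohorts had all drinkers above all controls, and the difference from cohort 5 was 0.49 ± 0.09 (SE; adjusted p = 5.28e-05), with 0.42 in the second KCNJ12 probeset (adjusted p = 0.00331). KCNJ6 differed by 0.51 ± 0.10 (adjusted p = 6.45e-05). Its relative KCNJ9, for GIRK3, had 0.14 ± 0.12 and did not pass. KCNJ2, for Kir2.1, had -0.19 ± 0.09 (adjusted p = 0.0845), KCNJ10, for the astrocytic Kir4.1, had -0.17 ± 0.11, and KCNJ8, for Kir6.1 of pericytes and smooth muscle, had -0.26 ± 0.18, so the family held values of both signs. A second KCNJ10 probeset was called, at -0.52 (adjusted p = 0.00928). So was 1 further probeset of KCNJ5, at -0.38 (0.00443), and 1 of KCNJ13, at -0.53 (0.0277), where the chosen probesets had -0.17 and -0.29 without a call.

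Two-pore channels carry background potassium current. Of the 12 measured, KCNK3, KCNK5 and KCNK10 were called higher between cohorts and none lower. KCNK5 differed by 0.61 ± 0.08 (SE; adjusted p = 4.80e-07), and its other probeset by -0.16 (0.207). KCNK10, for the stretch- and lipid-gated TREK-2, differed by 0.45 ± 0.16 (adjusted p = 0.0259, and 0.0763 with batch as a block). KCNK3, for the acid-sensitive TASK-1, differed by 0.26 ± 0.09 (adjusted p = 0.0291, 0.0999 with batch as a block and 0.0777 with the actin covariate). With only the arrays of the cohorts compared, the adjusted p of KCNK3 was 0.0561. KCNK2, for TREK-1, pointed down, at -0.15 ± 0.13, and did not pass. Within cohort 7b KCNK2 was called lower, at -0.38 (adjusted p = 0.0310). KCNK1 was also called lower there, at -0.35 (0.0135) and, in its second probeset, -0.38 (0.0321). KCNK3 and KCNK5 were called higher in that cohort, at 0.40 (0.00168) and 0.76 (1.15e-08). Neither KCNK1 nor KCNK2 was called in cohort 7a. KCNK13, which fell over all arrays, had a difference between cohorts of -0.01 ± 0.12.

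Of the calcium- and sodium-activated pores, KCNN3 alone among 6 was called in its chosen probeset. It encodes SK3, a small-conductance channel of the afterhyperpolarisation. In cohort 7b it was at 7.04, 7.09, 7.10, 7.30 and 7.33 in drinkers and at 6.16 and 6.32 in controls, and in cohort 7a at 7.21, 7.40 and 7.66 (lowest, median and highest) in drinkers and at 6.84, 7.07, 7.11 and 7.22 in controls. In cohort 5 it was at 6.75, 6.95 and 7.18 in drinkers and at 6.77, 6.83, 6.92, 7.00 and 7.02 in controls. The 2 controls of cohort 7b were below all other arrays, and drinkers of cohort 7a exceeded their controls except where the lowest of them met the highest control. The rise within cohort 7b, 0.94 ± 0.11 (SE; adjusted p = 7.73e-09), was the largest change of any member in any of the 3 cohorts, against 0.37 ± 0.08 in cohort 7a (adjusted p = 0.000611), and the difference from cohort 5 was 0.60 ± 0.10 (adjusted p = 1.57e-05). KCNN1 and KCNN2, for SK1 and SK2, had -0.01 ± 0.10 and -0.03 ± 0.10, and KCNT1, a sodium-activated channel, had 0.09 ± 0.11. KCNMA1 had 0.47 ± 0.21 (adjusted p = 0.0915) in the chosen probeset, and its 2 other probesets were called higher, at 0.62 (0.00598) and 0.45 (0.0398). Of the 4 BK beta subunits KCNMB2 was lower, at -0.38 ± 0.12 (adjusted p = 0.0158, 0.110 with the actin covariate and 0.0552 with arrays centred on their medians). KCNMB4 had -0.22 ± 0.10 (adjusted p = 0.102) in the chosen probeset. Of its 3 other probesets 2 were called lower, at -0.37 (0.00300) and -0.58 (0.00350), and the third had -0.10 (0.606).

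**Figure D4:**
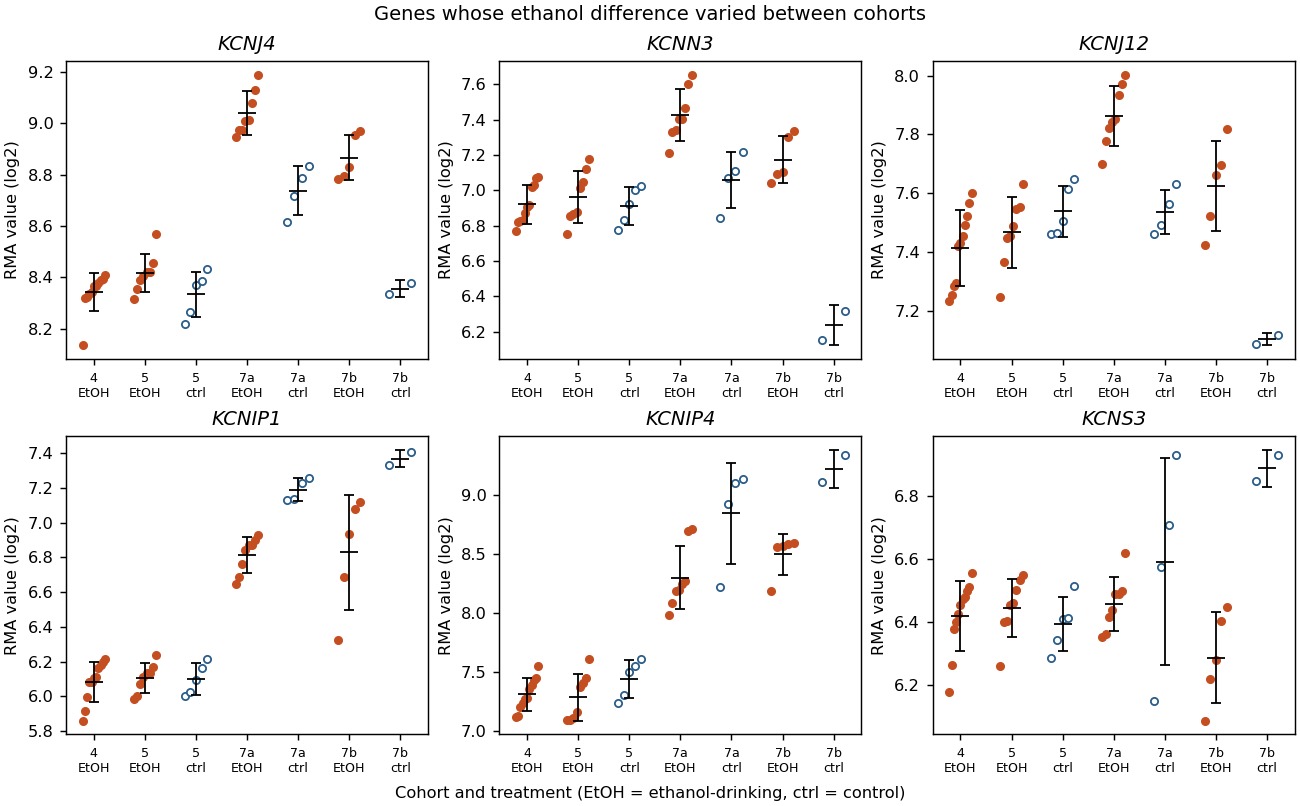
RMA value (log2, y axis) of 6 genes whose ethanol difference in cohorts 7a and 7b differed from that in cohort 5, for each array by cohort and treatment (x axis), drinkers filled and controls open, with mean and SD as bars. Within cohort 7a and within cohort 7b, all drinkers lie above the controls of their own cohort for KCNJ4 and KCNJ12 and below them for KCNIP1. The groups of cohort 5 overlap.

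Processing batches allowed the sign of each difference to be read among arrays run together. In 4 batches that held drinkers and controls of cohorts 7a and 7b, mean values of KCNA1, KCNA3, KCNC1, KCNC4, KCNF1, KCNH3, KCNJ4, KCNJ6, KCNJ12, KCNK3, KCNK5, KCNK10 and KCNN3 were higher in drinkers in 4 of 4, those of KCNB2 in 3, and those of KCNIP1, KCNIP4, KCNMB2, KCNS3 and KCNE1 in 0 of 4. Of all 74 members 18 were higher in 4 of 4 and 14 in 0 of 4, genes without a call among them. The named genes had been called from the same arrays, so their signs were not separate support. Signs over all genes were not counted. For KCNN3 the batch differences were 0.28, 0.06, 0.59 and 1.38, and for KCNIP1 they were -0.44, -0.35, -0.35 and -0.54. Each rested on 1 to 3 arrays a side. The batch with 1.38 for KCNN3 and -0.54 for KCNIP1 set drinkers of cohort 7a against a control of cohort 7b. The batch with 0.28 for KCNN3 and -0.44 for KCNIP1 set 1 drinker of cohort 7a and 1 of cohort 7b against 2 controls of cohort 7a. The differences of both batches, for every gene, thus include any offset between these cohorts. In the 3 batches of cohort 5, KCNJ6 was higher in 3, by 0.02 to 0.04, and KCNK5 in 0.

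Drinkers of cohort 5 and drinkers of cohort 4, which shared a kit and 3 batches, gave no called member (0% of all genes higher and 0% lower; 2 members with an unadjusted p under 0.05). Drinkers of cohort 7b had lower values than drinkers of cohort 7a for 13 members and a higher value for none (17.6% and 0%), where 8.29% of all genes were called lower and 4.04% higher. The median difference was -0.08 over the members and -0.01 over all genes. KCNJ10, the channel through which astrocytes take up potassium, was at 9.61, 9.72, 9.73, 9.75 and 9.83 in drinkers of cohort 7b and at 9.70, 10.12 and 10.40 (lowest, median and highest) in drinkers of cohort 7a, a difference of -0.40 ± 0.08 (SE; adjusted p = 0.00152). The control arrays of the same cohorts were at 9.65 and 9.82 in cohort 7b and at 10.01, 10.27, 10.34 and 10.55 in cohort 7a, so the offset between the cohorts was present in controls as well.

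The other 12 genes were KCNB2, KCND3, KCNAB1, KCNAB2, KCNF1, KCNH2, KCNH5, KCNQ3, KCNJ4, KCNJ12, KCNN1 and KCNN3, with differences of -0.17 to -0.37. KCNQ3 was at 6.88, 7.02, 7.03, 7.21 and 7.32 in drinkers of cohort 7b and at 7.20, 7.35 and 7.45 in drinkers of cohort 7a (lowest, median and highest), and its controls were at 6.91 and 7.03 in cohort 7b and 7.32, 7.34, 7.34 and 7.51 in cohort 7a. KCNN1 was at 7.40, 7.53, 7.74, 7.84 and 7.89 in drinkers of cohort 7b and at 7.83, 8.01 and 8.16 in drinkers of cohort 7a. Drinkers of the 2 cohorts overlapped for both genes. With the arrays of these drinkers alone in the fit, 1 member was called in place of 13, and with processing batch as a block 6 were. Of the 5 drinkers of cohort 7b, 3 were run in a batch with 1 drinker of cohort 7a and no control.

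**Figure D5:**
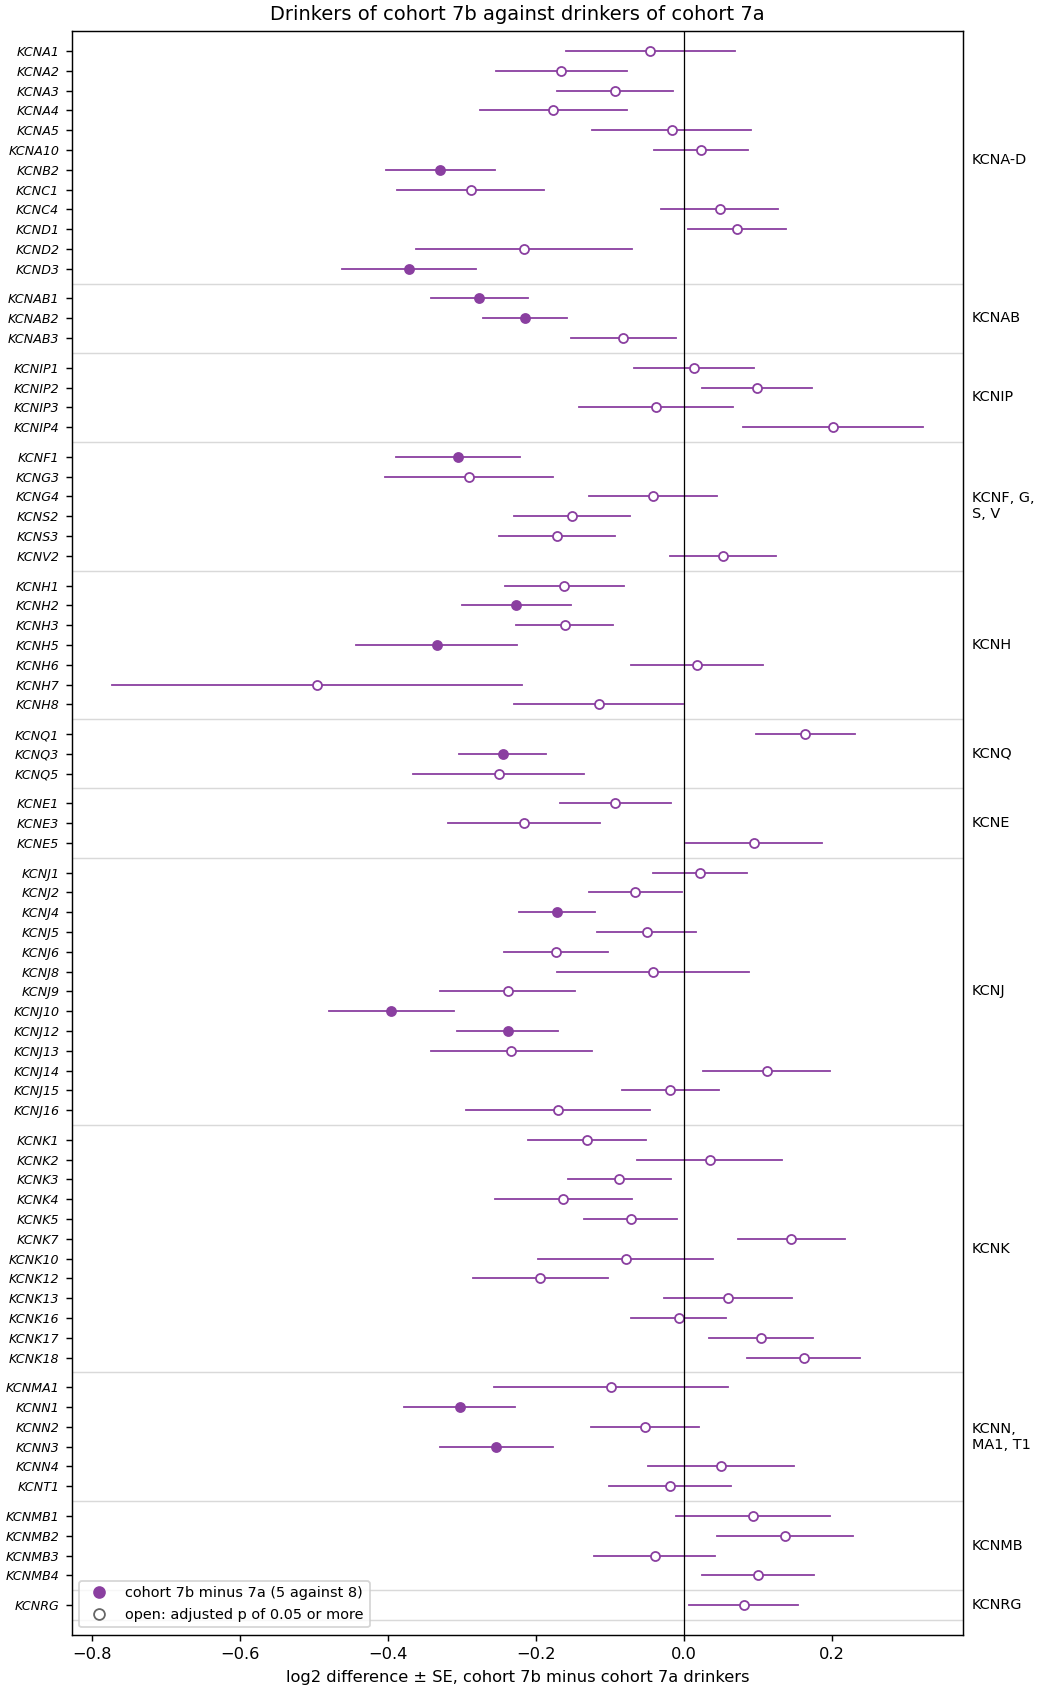
Log2 difference ± SE of drinkers of cohort 7b minus drinkers of cohort 7a (x axis) for the 74 potassium channel genes (y axis, by family), filled where the adjusted p is under 0.05. The 13 filled points all lie below 0.

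Proteins that build or place potassium channels were measured for 12 of 25 listed genes, and none was called over all arrays. Between cohorts 3 were called higher and 2 lower. ANK3, for ankyrin G, which anchors channels at the axon initial segment, differed by 0.62 ± 0.10 (SE; adjusted p = 1.02e-05). NEDD4L, a ubiquitin ligase of membrane channels, differed by 0.35 ± 0.07 and CALM3, one of the calmodulin genes, by 0.25 ± 0.06. LGI1, a secreted partner of Kv1 channels, differed by -0.40 ± 0.08 and AKAP5, a kinase anchor, by -0.46 ± 0.18. Of 15 listed pumps, cotransporters and HCN channels 3 were measured, and none was called over all arrays or between cohorts.

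Markers of cell types moved in the same comparison. Between cohorts 3 of 6 microglial markers fell (P2RY12 by 1.05, AIF1 by 0.77 and CX3CR1 by 0.38 log2 units) and none rose. Of 4 interneuron markers GAD2 rose by 1.63 ± 0.18 and PVALB fell by 1.14 (SE 0.28), while GAD1 had 0.03 ± 0.09. Of 4 astrocyte markers SLC1A2 rose by 0.58 ± 0.15, of 5 endothelial markers ABCB1 fell by 0.65, and none of 4 neuronal, 1 oligodendrocyte, 2 precursor and 2 mural markers was called. The mean level of the interneuron list was between 8.77 and 9.27 in drinkers and between 8.58 and 8.89 in controls of cohort 7a, and between 8.82 and 9.22 in drinkers and at 9.10 and 9.15 in controls of cohort 7b. The part of these markers in the changes of potassium channel genes was not tested.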

How the data were processed

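Affymetrix rhesus arrays were hybridised by the authors with RNA of 43 animals. The deposited values are log2 RMA values, which the authors made with the affy package (its version is not given in the sources used here) and which are not adjusted for processing batch. Gene symbols came from the platform annotation, and 71 of the 74 potassium channel gene IDs matched a RefSeq gene of the same symbol. Of the annotated probesets, those with a value below 3.5 on 80% or more of the arrays were dropped, and limma (3.58.1, R 4.3.3) was fitted to the 24151 left. The first fit had treatment alone, the factor in the study's own limma fit, and the next had 7 groups of cohort and treatment. The study describes a stricter threshold and RMA values adjusted by ComBat for processing batch. The first fit here is therefore not a repeat of the study's. Replicates are separate animals, and their number, above all of controls, limits precision. The 8 processing batches were recovered, because the order of 2 arrays over 912 probesets is kept between deposited and supplementary batch-adjusted values only within a batch. The models were tested on simulated data. The members, partner lists and markers were chosen with earlier results of these data known. Named genes were the members called over all arrays or between cohorts and a set of brain-expressed channels. Members outside it (KCNH5, for example) were named after their values were seen. Alternatives covered blocks, covariates, filters, scaling, choice of probeset and omission of each array.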

Additional observations from a re-analysis of the deposited data

Results flagged for a closer look

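In 10 of 230 groups of 4 to 10 arrays tested over 46 named genes, 1 array lay far from the others of its group, and chance flags about 1 in 20 groups. Lowest arrays stood apart for KCNAB2 (control 27 of cohort 7a, 10.78 against 10.97 in the nearest array), KCNIP4 (drinker 42 of cohort 7b, 8.19 against 8.56), KCNJ8 (drinker 39 of cohort 7b, 5.01 against 5.42), KCNK1 (drinker 43 of cohort 7b, 9.16 against 9.48), KCNMA1 (the same drinker, 7.87 against 8.41) and KCNK5 (control 12 of cohort 5, 9.79 against 9.92). Highest arrays stood apart for KCNC1 (drinker 42 of cohort 7b, 8.41 against 8.0002), KCND2 (drinker 21 of cohort 5, 5.95 against 5.73), KCNJ9 (control 26 of cohort 7a, 7.32 against 7.17) and KCNQ3 (control 25 of cohort 7a, 7.51 against 7.34).

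The ethanol difference of 19 genes was not the same in cohorts 7a and 7b as in cohort 5 by the test of the difference in limma. The log2 difference between cohorts was positive for KCNA1 (0.43), KCNA3 (0.44), KCNB2 (0.26), KCNC1 (0.41), KCNC4 (0.53), KCNF1 (0.30), KCNH3 (0.26), KCNJ4 (0.32), KCNJ6 (0.51), KCNJ12 (0.49), KCNK3 (0.26), KCNK5 (0.61), KCNK10 (0.45) and KCNN3 (0.60). It was negative for KCNE1 (-0.28), KCNIP1 (-0.46), KCNIP4 (-0.48), KCNMB2 (-0.38) and KCNS3 (-0.42). Extraction kit and processing batches follow the same division of cohorts and cannot be told apart from it.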

How the results depend on the processing

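Over all 43 arrays, 6 members were called, and the count was 20 with cohort as a block, 13 with processing batch as a block, 15 with extraction kit as a block, 14 with the actin value as a covariate and 10 when all probesets of the family were counted. With the actin value and cohort together it was 8. Over all 13705 genes, 855 were called higher and 1415 lower with treatment alone. These were 1810 and 2745 with cohort as a block and 1279 and 1877 with processing batch as a block. Calls over all genes were not counted for the other alternatives or with arrays left out. Leaving out each array gave 3 to 10 calls: 3 without control 37 or 38 of cohort 7b and 10 without control 14, 15 or 16 of cohort 5. Of the 6 genes, KCNJ6 and KCNK5 were called under each alternative and, with KCNA3, in each fit with an array left out. The choice of probeset could not alter either call. KCNJ6 has 1 probeset, and the KCNK5 probeset of largest variance was the chosen one. The other KCNK5 probeset differed by -0.07 (adjusted p = 0.303). With the probeset of largest variance KCNA3 differed by 0.01 (adjusted p = 0.975) and KCNC4 by 0.11 (0.680). The only reversal was that of KCNF1, at 0.16 with cohort as a block.

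Within cohort 7a the count of 21 (11 higher, 10 lower) was 14 with only its own arrays in the fit (9 higher, 5 lower), 15 with the actin covariate (11 higher, 4 lower), and 17 to 23 when each array was left out. Within cohort 7b the count of 28 was 17 with only its own arrays in the fit, and 18 to 30 when each array was left out, lowest without control 37, which leaves 1 control whose spread is taken from the other groups. For the difference between cohorts, 19 calls became 12 with processing batch as a block, chosen after seeing the data, and 11 to 21 when each array was left out, lowest without control 37. The 13 calls between drinkers of cohorts 7b and 7a became 1 with only their arrays and 6 with batch as a block, and 8 to 14 when each array was left out, lowest without drinker 39 of cohort 7b. Centring arrays on their medians gave 5 higher and 1 lower over all arrays, in place of 4 and 2, and 19 higher and 2 lower between cohorts, in place of 14 and 5. For these alternatives, shares of all genes were not counted. Cohort 5, and drinkers of cohort 5 against cohort 4, stayed at 0 in every fit, 0 to 0 with each array left out. The cause of these shifts was not tested. No paired analysis was made, because the sample labels do not say which control was matched to which drinker.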
